A study of Mus musculus with 14 samples.

Results

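The genes Acta2, Actb, Actg1, Tagln, Cnn1, Tpm1, Tpm2, Myl9, Myh9 and Vcl encode actins and proteins of the contractile cytoskeleton. A site of acetylated lysine 27 of histone H3 (H3K27ac) was assigned to one of these 10 genes if it overlapped the annotated gene body or the 20 kb at either end. By this rule, 207 of the 122228 sites in the deposited list belonged to the 10 genes, and no site was assigned to more than 1 of them. The assignment of sites used names and positions only, and not width, base coverage or sequence. The genes themselves were chosen with earlier results of these data known.

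The sites came from ChIP-seq of immortalized mouse embryo fibroblasts (iMEF). In every group, controls included, exon 4 of the endogenous Ash2l alleles was deleted, and the cells relied on a lentiviral FKBP-HA2-ASH2L fusion that the PROTAC dTAG-13 degrades. The groups were 2 H3K27ac libraries each of control cells without dTAG and of cells treated for 30 min, 2 h, 4 h, 8 h or 16 h, plus 1 input library each of control cells and of cells at 16 h. The list joins the H3K27ac peaks identified across the samples. It holds a chromosome, a start and an end per site, with no read count and no sample. A site may thus stem from any time point. The values are therefore single positions and widths without replicate error, the list does not give the depth behind them, and changes over the dTAG time course were not analysed here.

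H3K27ac marks active promoters and enhancers. Actin filaments are built from actin monomers and are pulled by myosin, which together drive cell shape, adhesion and migration. Many genes of this system are targets of the serum response factor SRF and its actin-sensing coactivators, the MRTFs, which act through a short AT-rich motif known as the CArG box. In fibroblasts, the smooth muscle actin Acta2 and its partners Tagln and Cnn1 are known as markers of activated, myofibroblast-like states.

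Sites were present at the genes that mark fibroblasts. A promoter site was defined as a site whose middle was at most 1 kb from a transcription start site (TSS) annotated for the gene. Such sites were found at 9 of the 10 fibroblast markers, namely Col1a2, Col3a1, Fn1, Vim, Thy1, Pdgfra, Pdgfrb, Fbln2 and Twist1. The exception, Col1a1, had its 5′ end inside a site of 22711 bp, whose middle lay further away. Of 12 markers of other cell types, 1 had a promoter site, namely Cdh5, whereas none was found at Epcam, Cdh1, Krt5, Ptprc, Cd3e, Pecam1, Sox2, Pou5f1, Alb and Neurod1. Of the 12 markers, 6 had no site in the gene body or the 20 kb at either end. In contrast, Cdh1 had 16 such sites and Pecam1 9, none of them promoter sites of these genes.

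All 10 contractile genes had sites, from 4 at Myl9 to 55 at Vcl. The number of sites did not follow the number of bases they covered. Vcl, with the most sites, had 22224 bp inside sites, whereas Myh9, with 27 sites, had 75969 bp. Tpm1 had 38 sites covering 34444 bp, Acta2 23 sites covering 13532 bp and Tagln 19 sites covering 14294 bp. The remaining genes had 7 to 12 sites, with 10643 bp at Actg1, 11053 bp at Tpm2, 11815 bp at Cnn1 and 16126 bp at Actb, except for Myl9 with 4527 bp. The median over the 10 genes was 15.5 sites and 13913 bp, compared to 4 sites and 2363 bp over all 21755 protein-coding genes on chromosomes 1 to 19 and X. Among the 11908 coding genes with a promoter site, the medians were 6 sites and 4548 bp. The map of sites shows that the sites of Myh9 fused into broad blocks, those of Vcl stayed narrow and scattered, and those of Myl9 lay in the gene and its promoter.

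**Figure D1:**
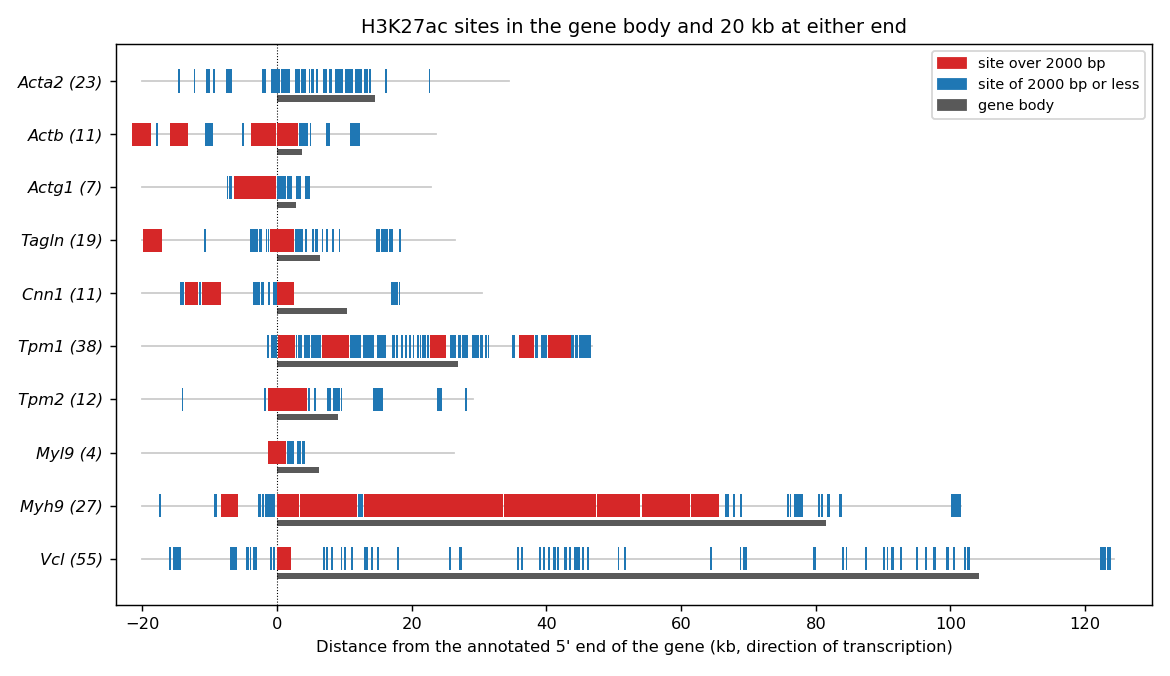
Position of each H3K27ac site (bars) along the 10 genes, as distance from the annotated 5′ end in kb, with the gene body below and the number of sites in parentheses. Red bars are sites over 2000 bp, of which Myh9 had 9, Tpm1 5 and Acta2 0.

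Seen per length, the regions of the 10 genes were densely covered. The share of the gene body plus 20 kb inside sites was 62.5% at Myh9, 51.5% at Tpm1, 37% at Actb and 30.8% at Tagln. It was 24.8% at both Acta2 and Actg1, 23.4% at Cnn1 and 22.5% at Tpm2. The lowest shares were those of Vcl (15.4%) and Myl9 (9.79%). For Myh9, 99.9% of coding genes had a lower share, for Tpm1 99.7%, and for Myl9, the lowest of the 10, still 79.8%. The median of the 10 genes was 24.8%, compared to 3.19% over all coding genes and 6.11% over those with a promoter site. The 10 fibroblast markers came close to it, with a median of 23.1%, 14.5 sites and 16138 bp, so that dense coverage was not particular to the contractile genes.

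Within the gene bodies, coverage was higher at each gene, though by little at Cnn1 and Vcl. Sites covered 94.6% of Actb, 83.3% of Myh9, 75.5% of Tpm1, 73.4% of Tagln, 72.7% of Actg1, 69.8% of Tpm2, 65% of Acta2 and 52% of Myl9. Cnn1 and Vcl had the lowest values, with 24.6% and 15.6%, compared to 23.4% and 15.4% of the gene body plus 20 kb. In Cnn1, which encodes the actin-binding protein calponin 1, all bases in the body belonged to a single site that ended 2569 bp downstream of the 5′ end, and the rest of the 10415-bp gene held no site. The flanks are shared with other genes. Of the 207 sites, 16 were promoter sites of other coding genes, such as Pcsk7 and Sidt2 near Tagln or Elof1 and Ecsit near Cnn1, and 26 had their middle in the body of another coding gene.

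**Figure D2:**
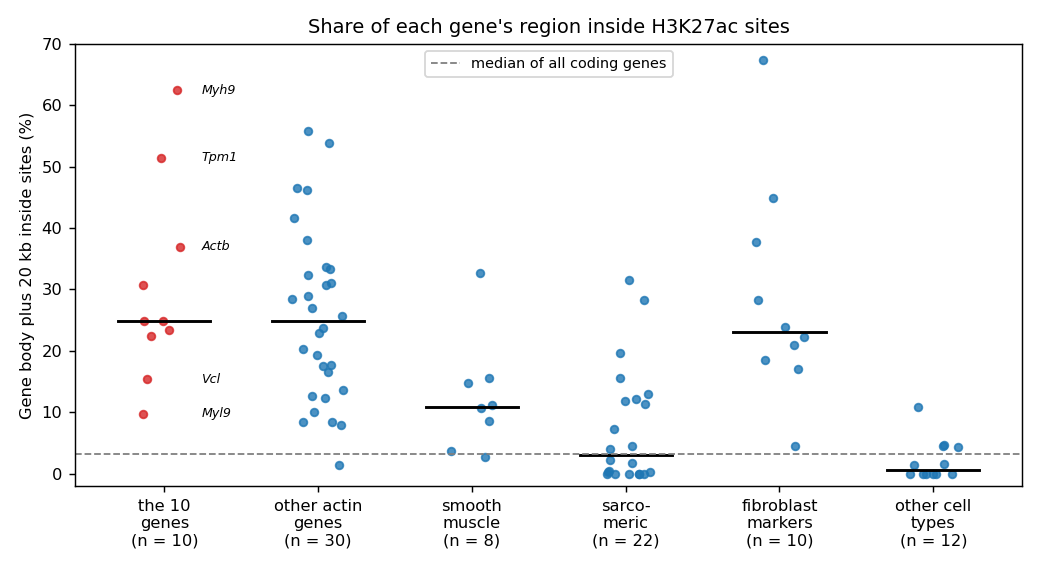
Percent of the gene body plus 20 kb inside H3K27ac sites, 1 point per gene, for the 10 contractile genes (red) and the comparison lists (blue), with the median of each list as a black line. The 10 genes range from 9.79% to 62.5%, above the dashed median of 3.19% over all coding genes.

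The typical site of these genes was as narrow as any other. Their median width was 412 bp, and the range between the quartiles ran from 270 to 994 bp. Over the 122171 sites on chromosomes 1 to 19 and X, the median was 401 bp and the same range was 265 to 723 bp. The difference was in the upper tail. Sites over 2000 bp made up 13% (27 of 207), compared to 4.33% of all sites, and sites over 4000 bp 4.35% (9 of 207), compared to 0.711% of all sites. Among the sites of the fibroblast markers, 9.7% were over 2000 bp and 2.53% over 4000 bp. Myh9 alone held 7 of the 9 sites over 4000 bp, and Actg1 and Tpm2 held 1 each. In all, 9 of the 10 genes had at least 1 site over 2000 bp, the exception being Acta2.

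**Figure D3:**
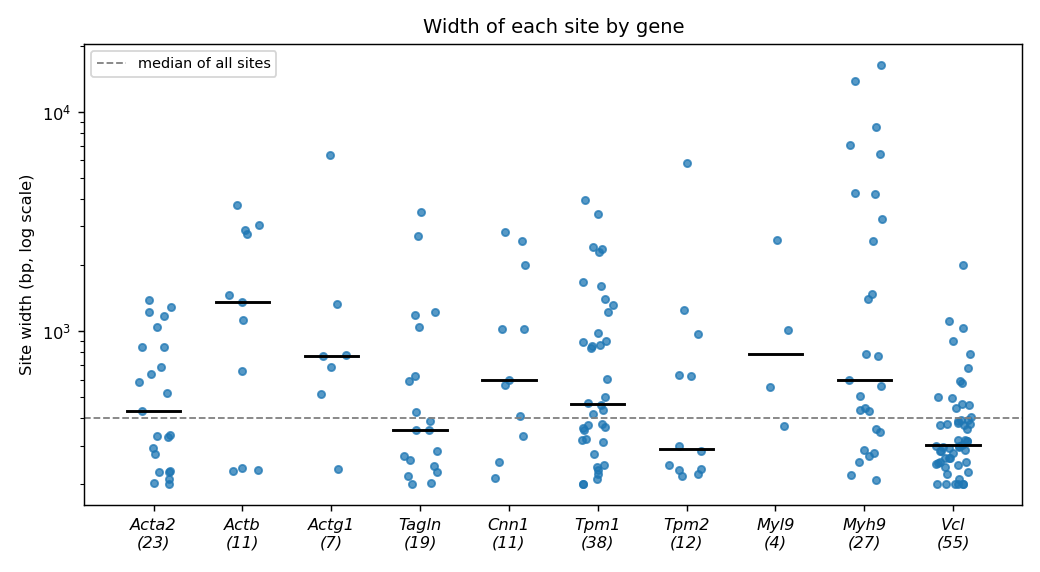
Width of each of the 207 sites in bp on a log axis, by gene, with the median of each gene as a black line and the number of sites in parentheses. Most points lie around the dashed median of 401 bp of all sites, whereas Myh9 reaches 16311 bp.

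Next, the 5′ ends of the genes were examined. All 10 genes had a promoter site by the definition above, whereas 54.7% of coding genes did. The definition by the middle of a site missed broad sites, however, and the site that counted was not always at the main start. For Tpm2 and Myh9, the site that met it was a narrow one of 298 bp and 253 bp near the start of a non-coding transcript inside the gene (Tpm2-204 and Myh9-207). The broad sites at their 5′ ends had their middles over 1 kb away. When only the gene's 5′ end and any overlap with the 1 kb at either side were counted, again 10 of 10 genes had a site, and 52% of coding genes did.

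Coverage around the 5′ end was high in each gene. Of the 2001 bp centred on the 5′ end, 100% lay inside sites at Tagln, Tpm2 and Myl9, 94.4% at Actg1, 93.8% at Actb and 89% at Acta2. Tpm1 had 86.6%, Myh9 81.9%, Vcl 80.7% and Cnn1 77.9%. The median of 91.4% compared to 64.6% over the coding genes with any site in this window and to 91.7% over the fibroblast markers.

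The position of the 5′ end relative to the sites split the 10 genes. At Acta2, Tagln, Tpm2 and Myl9 it lay inside a site, of 1389, 3496, 5838 and 2592 bp. This was 4 of 10 genes. The 5′ end lay inside a site for 36.5% of coding genes, 65.7% of those with a promoter site and 8 of 10 fibroblast markers. At the other 6 contractile genes, it lay in a narrow gap between sites on both sides. The gap measured 80 bp at Cnn1, 113 bp at Actg1, 124 bp at Actb, 213 bp at Tpm1, 294 bp at Vcl and 363 bp at Myh9. A gap of under 500 bp around the 5′ end was found in 7.84% of coding genes and 14.3% of those with a promoter site. The downstream site began 7 bp after the 5′ end at Actb, 10 bp at Cnn1, 11 bp at Vcl, 21 bp at Actg1, 23 bp at Myh9 and 166 bp at Tpm1. Except at Tpm1, with 48 bp to the upstream and 166 bp to the downstream edge, the gap thus lay mostly upstream of the annotated start. At these other genes, a shift of the start downstream by 7 to 23 bp would place it inside a site. RefSeq starts, at hand for 8 of the 10 genes, lay in a site for 6 of the 8, including Actg1, Cnn1 and Tpm1, whose RefSeq starts are 47, 37 and 193 bp further downstream. Myh9 and Vcl, with the same start in both annotations, remained in the gap. How the authors joined the peaks is not given in the sources used here, and the gaps depend on it.

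**Figure D4:**
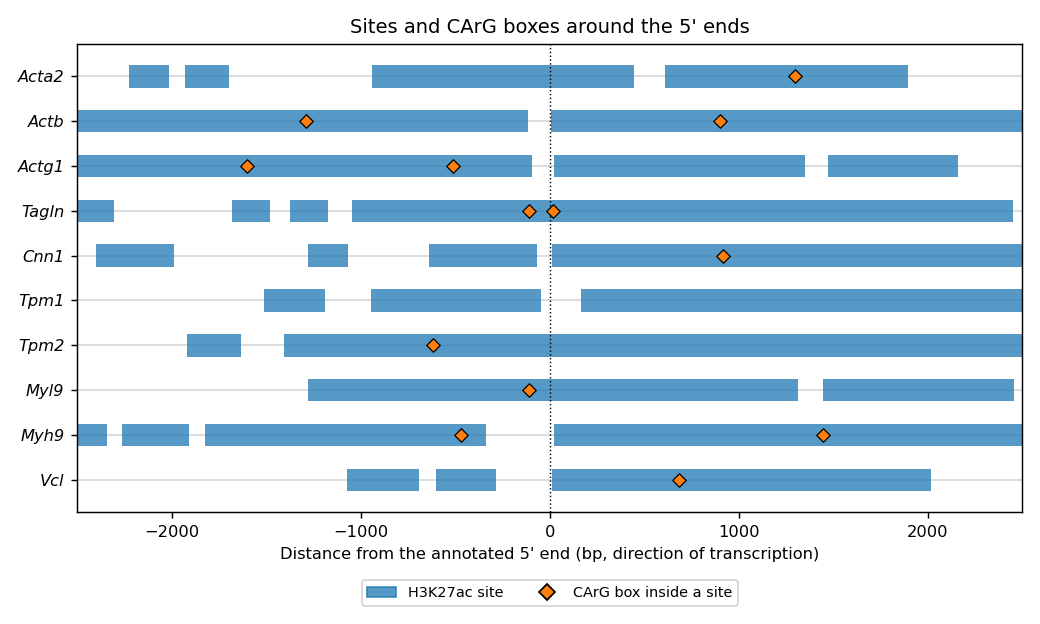
H3K27ac sites (blue) and the CArG boxes inside them (diamonds) around the annotated 5′ ends of the 10 genes, as distance in bp along the direction of transcription. At Acta2, Tagln, Tpm2 and Myl9 the dotted line runs through a site, and at the other 6 genes through a gap of 80 to 363 bp.

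The genes also differed in base composition at the 5′ end. When 50% GC and a CpG ratio (observed over expected) of 0.6 were required in the 500 bp at either side, Actb, Actg1, Tpm1, Myh9 and Vcl were CpG-rich, with ratios from 0.613 to 0.926. Acta2, Tagln, Cnn1 and Myl9 had ratios of 0.284, 0.353, 0.21 and 0.36, and Tpm2 lay just below the limit with 0.578. All 5 CpG-rich genes had the 5′ end in a gap, as did Cnn1. Over all coding genes with a promoter site, the 5′ end lay in such a gap for 17.6% of CpG-rich and 6.78% of other genes, and inside a site for 71.4% and 52.9%.

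The CArG box consists of 2 C, 6 bases that are A or T, and 2 G, and reads as such on either strand. In the 250 bases upstream of the 5′ end it occurred in 5 of the 10 genes, whereas 1.34% of coding genes had one there. The sequences of 4 of them are shown 5′ to 3′ in the direction of transcription (GRCm38.p6), with the box in capitals, since they place the motif relative to the sites. The last base is the one before the annotated 5′ end.
Actg1, chr11:120348543-120348792 (- strand): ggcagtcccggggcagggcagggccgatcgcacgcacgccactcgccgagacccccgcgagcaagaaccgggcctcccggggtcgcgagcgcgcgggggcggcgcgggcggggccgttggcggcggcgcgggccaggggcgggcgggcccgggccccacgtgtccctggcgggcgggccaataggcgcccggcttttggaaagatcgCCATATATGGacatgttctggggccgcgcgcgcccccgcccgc
Tagln, chr9:45936059-45936308 (- strand): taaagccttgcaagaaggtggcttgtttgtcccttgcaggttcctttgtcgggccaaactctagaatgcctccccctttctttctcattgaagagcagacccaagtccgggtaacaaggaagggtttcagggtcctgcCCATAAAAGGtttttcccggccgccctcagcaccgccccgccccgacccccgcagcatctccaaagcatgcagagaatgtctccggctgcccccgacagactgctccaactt
Myl9, chr2:156775170-156775419 (+ strand): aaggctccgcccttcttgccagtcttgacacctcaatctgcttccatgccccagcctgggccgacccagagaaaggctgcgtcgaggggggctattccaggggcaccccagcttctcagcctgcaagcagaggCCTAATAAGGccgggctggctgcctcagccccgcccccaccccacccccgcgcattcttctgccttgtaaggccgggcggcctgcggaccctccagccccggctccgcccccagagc
Vcl, chr14:20929148-20929397 (+ strand): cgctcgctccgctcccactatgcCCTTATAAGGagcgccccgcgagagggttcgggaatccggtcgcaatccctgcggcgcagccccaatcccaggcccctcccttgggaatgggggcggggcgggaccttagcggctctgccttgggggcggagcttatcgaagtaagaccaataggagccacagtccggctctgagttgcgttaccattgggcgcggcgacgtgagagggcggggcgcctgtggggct

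The box began at position -43 in Actg1 and lay in the gap between the flanking sites. The same held for Vcl, with the box at -227. At Tagln and Myl9, the boxes at -112 and -117 lay inside the site that also covered the 5′ end. Within 500 bp to either side of the 5′ end, 6 of the 10 genes had a box, namely these 5 and Myh9, compared to 4.34% of coding genes.

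Further boxes were found inside the surrounding sites. The 12 shown here are those inside sites within 2000 bp of a 5′ end that are not shown above, and the one in the gene body of Tpm1, with 10 bases to either side and the box in capitals. The distance is from the annotated 5′ end to the centre of the box.
Acta2, centre 1297 bp, chr19:34254288-34254297: gtgtgttttaCCTAATTAGGaaatgctccc
Actb, centre -1288 bp, chr5:142908037-142908046: ccactgtagtCCATATATGGatgaagcctt
Actb, centre 901 bp, chr5:142905848-142905857: ccagcgtttgCCTTTTATGGtaataatgcg
Actg1, centre -1599 bp, chr11:120350136-120350145: gtcgaaatcgCCAAATATGGccgcgcgccg
Actg1, centre -512 bp, chr11:120349049-120349058: gacccctcctCCAATAAAGGgacatggctg
Tagln, centre 15 bp, chr9:45936038-45936047: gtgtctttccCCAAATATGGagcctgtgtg
Cnn1, centre 915 bp, chr9:22100126-22100135: agccgccgcgCCTTATAAGGcggccttggg
Tpm1, centre 8362 bp, chr9:67041039-67041048: cctttcttgaCCATATAAGGgcaggagttt
Tpm2, centre -619 bp, chr4:43524379-43524388: gggaaacatcCCAAAAAAGGgcagaaaaga
Myh9, centre -468 bp, chr15:77842638-77842647: accacttttcCCATATATGGtacttaatat
Myh9, centre 1447 bp, chr15:77840723-77840732: agcacctataCCAAAATTGGaacgatacag
Vcl, centre 686 bp, chr14:20930079-20930088: gctcttagctCCTTTTTAGGcctctcctct

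Inside sites within 2000 bp of the 5′ end, 13 boxes were counted at 9 genes, all but Tpm1. Of the boxes in the gene body of Tpm1, the one shown was the only one inside a site, its widest, of 3937 bp. At Cnn1, the box was in the site of 2560 bp that begins 10 bp downstream of the 5′ end, and at Acta2 in the site of 1286 bp that holds the start of its second annotated transcript. A perfect box was absent from the first 500 bp at either side of the 5′ end of Acta2. When 1 mismatch among the 6 central bases was allowed, 2 boxes appeared between the GENCODE and RefSeq starts of this gene, both inside the site that covers the 5′ end. These are shown because Acta2 had no perfect match there, and they were chosen after the values were seen.
Acta2, centre 137 bp, chr19:34255448-34255457: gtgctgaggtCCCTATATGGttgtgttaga
Acta2, centre 187 bp, chr19:34255398-34255407: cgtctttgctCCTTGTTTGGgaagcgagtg

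They lay 80 and 30 bases upstream of the RefSeq start. With 1 mismatch allowed, a match within 500 bp of the 5′ end was present in 27.3% of coding genes, so that such a match is common.

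Over the whole regions, CArG boxes were more frequent in the sites of the 10 genes than in sites at large. Of the 207 sites, 21 (10.1%, 95% Wilson interval 6.73 to 15%) held a box, compared to 3.15% of all sites. The interval covers counting error only. Each of the 10 genes had at least 1 such site, whereas 16.4% of coding genes and 24.8% of those with a promoter site did. The 10 genes also had more bases in sites than the median coding gene, which raises the chance of a match. Because broad sites hold more bases, the boxes were also counted per length. There were 0.116 boxes per kb of member sites, 0.0511 per kb of all sites and 0.0613 per kb of chromosomes 1 to 19 and X. The values of single genes ranged from 0.0581 per kb at Tpm1 to 0.221 per kb at Myl9, where each rests on few boxes (2 and 1). Outside the sites, the same regions held 0.0776 boxes per kb, so that 25 of 60 boxes (41.7%) lay inside the 32.2% of bases in sites.

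The share rose with the width of the sites. Of the 27 sites of at least 2000 bp, 14 (51.9%, interval 34 to 69.3%) held a box, compared to 16.2% of all sites of this width, which is 0.146 and 0.0566 boxes per kb. From 1000 to under 2000 bp, the shares were 12% (interval 4.17 to 30%) and 6.31%, with 0.0957 and 0.0482 boxes per kb. From 400 to under 1000 bp, they were 5.66% (interval 1.94 to 15.4%) and 3.03%, with 0.0908 and 0.0501 per kb. The 10 genes thus had the higher value in each of these 3 classes, with intervals that include the share of all sites in the lower 2 of them. Among the 102 sites below 400 bp, 1 (0.98%, interval 0.173 to 5.35%) did, compared to 1.37%. Myh9 held 7 of the 25 boxes in sites, 2 each in its sites of 16311 and 13714 bp and 1 each in those of 8540, 3244 and 1482 bp. A distal box lay near Actb in a site of 2887 bp, centred at -19828 bp, and another near Acta2 in a site of 683 bp at -10249 bp. The remaining ones lay in a site of 1042 bp at 16013 bp from the 5′ end of Tagln and in a site of 417 bp at 30497 bp from that of Tpm1. At Vcl, they lay in a site of 594 bp at -3391 bp and in a site of 200 bp at 50649 bp.

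**Figure D5:**
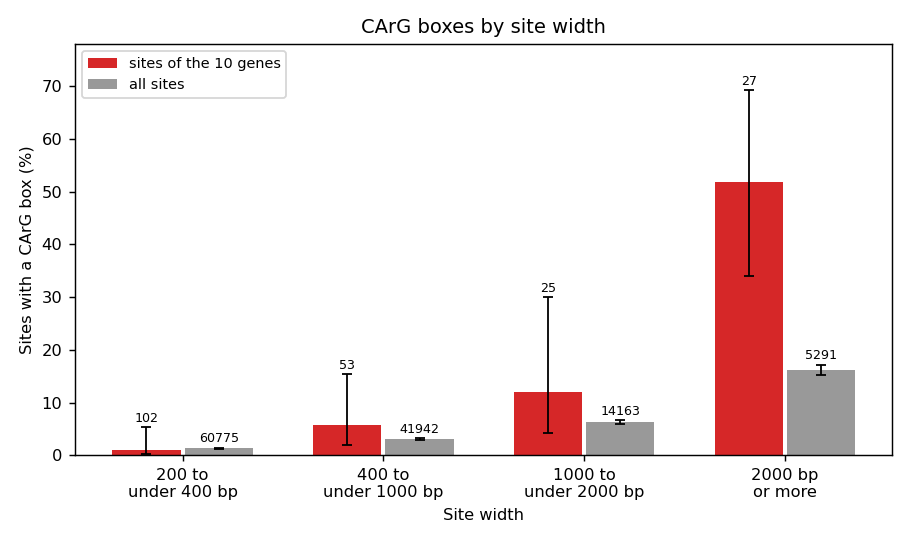
Percent of sites with a CArG box by width of the site, for the 207 sites of the 10 genes (red) and all sites (grey), with 95% Wilson intervals and the number of sites above each bar. In the broadest class, the 10 genes reach 51.9% and all sites 16.2%.

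Other motifs did not share this pattern. The MCAT element CATTCC, which TEAD factors bind and which was searched on both strands, was found in 34.8% of member sites and 30% of all sites, but per kb it was less frequent in the former (0.592 and 0.673). The AP-1 element TGANTCA was found in 25.6% of member sites and 21.1% of all sites, with 0.384 and 0.43 matches per kb. A match to any of these motifs is a description of the sequence and shows no binding.

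Among the actins, Actb and Actg1, the cytoplasmic β- and γ-actin, shared an arrangement. Each had a broad site directly upstream of the gap at the 5′ end, of 3765 bp at Actb (chr5:142906872-142910636, intergenic) and 6330 bp at Actg1 (chr11:120348635-120354964, over a divergent non-coding RNA gene), and a site of 3032 and 1328 bp that began just downstream of the 5′ end. The 6330-bp site ranked 241st by width among all sites. Actb had additional broad sites of 2754 bp, from -15944 to -13191 bp, and of 2887 bp, from -21612 to -18726 bp, while the sites of Actg1 all lay between -7466 and 4951 bp. Acta2, the smooth muscle α-actin, looked different. Its widest site had 1389 bp (chr19:34255145-34256533, promoter, first exon and part of the first intron), and 14 sites were spread over its gene body, none of them wider. When sites less than 1 kb apart were merged, 16 of its sites formed a region of 16243 bp from -2225 to 14017 bp.

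Among the proteins that bind along actin filaments, Tagln, which encodes transgelin, had its widest site of 3496 bp over the 5′ end (chr9:45933609-45937104, first exon and first intron). Cnn1 had 2 sites of 2560 and 567 bp at the 5′ end, and its widest site of 2822 bp (chr9:22088071-22090892, intergenic) lay upstream from -11145 to -8324 bp, beside another of 2009 bp. The tropomyosins, which stabilize the filaments, differed from each other. Tpm1 had a dense series of sites, and merging gave 2 regions, the larger one of 33036 bp from 29 of the 38 sites. Its second cluster of TSSs, 5444 to 5697 bp downstream of the 5′ end, where the short isoforms start, lay in a site of 1401 bp. Of the sites outside the gene, 15 were downstream and 2 upstream. In contrast, Tpm2 had a single dominant site of 5838 bp (chr4:43519334-43525171) that covered the 5′ end and exons 1 to 4. The flank of Tln1, the neighbouring gene for the adhesion protein talin, also reached this site, and it was the widest there.

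The myosin genes were at opposite ends. Myl9, which encodes a regulatory light chain, had 4 sites, of 2592, 1010, 557 and 368 bp, from -1281 to 4123 bp. The widest (chr2:156774139-156776730) was centred 15 bp from the 5′ end. Myh9, the heavy chain of non-muscle myosin IIA, had 9 sites over 2000 bp. The site of 16311 bp (chr15:77808605-77824915), which spans exon 2, ranked 6th among all sites, and the adjoining site of 13714 bp (chr15:77794801-77808514), which spans exons 3 to 5, ranked 14th. Merging gave a region of 71770 bp from 15 sites, from -2778 to 68991 bp. Vcl, which encodes vinculin, a link between actin and focal adhesions, was larger still, with 104279 bp. Yet its widest site had 2004 bp (chr14:20929409-20931412, first exon and first intron), its median site 302 bp, and the widest merged region 7384 bp, 38874 to 46257 bp downstream of the 5′ end.

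First introns were considered next, since regulatory elements of actin genes often reside there. A site with its middle in the first intron was found in 7 of 10 genes, compared to 39.2% of coding genes with an intron. Among the coding genes with a promoter site, 7416 of the 11504 with an intron had one. So did 7 of 10 fibroblast markers and 19 of 30 other actin cytoskeleton genes, so that this was not particular to the contractile genes. The exceptions among the 10 contractile genes were Actb, Actg1 and Tpm2. Their first introns of 959, 327 and 440 bp were nonetheless covered to 100% by sites centred elsewhere. The first introns of Cnn1 (1722 bp) and Tpm1 (1107 bp) were also covered to 100%, and those of Tagln (4060 bp), Myl9 (3012 bp) and Acta2 (2713 bp) to 89.2, 80.2 and 67.3%. The long first introns separated Myh9 from Vcl. Of the 28725 bp at Myh9, 98.6% lay in sites, 5 of them centred in the intron. Of the 37849 bp at Vcl, 15.9% did, with 15 sites centred there.

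The sites fell into classes by the position of their middle. Several broad sites at the 5′ ends therefore fell outside the promoter class. Those of Actg1 (6330 bp) and Actb (3765 bp) counted as upstream. That of Tpm2 (5838 bp) counted as rest of the gene body, and that of Myh9 (3244 bp) as first intron. There were 20 promoter sites with a median width of 792 bp, compared to 740 bp for the 19329 sites at coding promoters. A further 24 sites in first introns had a median of 380 bp, 77 in the rest of the gene bodies 359 bp, 41 upstream 412 bp and 29 downstream 434 bp. The base pairs were distributed otherwise. Full site widths were summed by class. Promoter sites amounted to 23548 bp, first-intron sites to 44350 bp and sites in the rest of the gene bodies to 76400 bp. To the last 2 of these, Myh9 contributed 33142 and 34604 bp. The sums include bases beyond the part itself, since the first intron of Myh9 has 28725 bp, of which 28319 bp lay in sites.

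Finally, the 10 genes were compared with related gene lists. The 30 other actin cytoskeleton genes had the same median share of the region in sites, 24.8%, with 19 sites and 15454 bp, and 29 of 30 had a promoter site. The exception, Pdlim7, was again missed by the middle of a broad site, of 6725 bp. The gene bodies of this list were covered less, with a median of 44.9% compared to 71.2% for the 10 genes. Gene length was not matched between the lists, and the share in single genes of this list ran from 0.986 to 100%. Cald1 (100151 bp) and Actn1 (71422 bp) were among the 3 with the most base pairs in sites, and Cotl1 (999 bp), Srf (5949 bp) and Tpm3 (6874 bp) had the fewest. Sites over 2000 bp made up 8.19% and sites with a CArG box 5.46% (interval 4.19 to 7.09%) of the 952 sites in this list. At least 1 site with a box was found at 23 of the 30 genes (76.7%). The 5′ end lay inside a site for 23 of the 30 genes and in a gap of under 500 bp for 3. None of these differences was tested, since the list holds no replicates.

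Genes for smooth and striated muscle were covered less. Of 8 smooth muscle genes, 4 had a promoter site, namely Lmod1, Synpo2, Smtn and Ldb3, and 4 had none, namely Myh11, Actg2, Des and Myocd, the last encoding a coactivator of SRF. Their median share of the region in sites was 10.9%, with the highest value at Lmod1 (27259 bp, 32.7%). The 22 sarcomeric genes, which encode actins, myosins, troponins and α-actinins of striated muscle, had a median of 3.1%, close to the 3.19% of all coding genes. Promoter sites were found at 5 of them, Tnni1, Tnni2, Myl4, Actn2 and Actn3, and not at Acta1, Actc1, Myh1, Myh2, Myh3, Myh4, Myh6, Myh7, Myl1, Myl2, Myl3, Tnnt1, Tnnt2, Tnnt3, Tnni3, Tnnc1 and Tnnc2. Actc1, Myh1, Myh2, Myh4, Myl1 and Myl2 had no site within 20 kb. A CArG box was held by 6.73% of the 104 smooth muscle sites (interval 3.3 to 13.2%). The same held for 6.86% of the 102 sarcomeric sites (interval 3.36 to 13.5%). Both intervals overlap that of the 10 genes (6.73 to 15%). The intervals of the 30 other actin cytoskeleton genes and of the fibroblast markers do so as well, the latter with 4.22% (interval 2.31 to 7.59%). Boxes per kb were not counted for these lists. At least 1 site with a box was found at 50% of the smooth muscle and 31.8% of the sarcomeric genes. The most base pairs were counted at Tnni1 (14100 bp), Tnni2 (13403 bp) and Tnnc1 (12279 bp). They lay almost entirely in the flanks, since sites covered 2.62% of the body of Tnni1 and 0% of the other 2. Of the 22 genes, 18 had no site in the gene body. Of the actins, Actb, Actg1 and Acta2 thus had promoter sites. The smooth muscle actin Actg2 and the skeletal and cardiac actins Acta1 and Actc1 had none.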

How the data were processed

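The reads were trimmed (Trim Galore), aligned to mm10 (BWA) and filtered (SAMtools) by the authors. They also combined the replicates (Picard) and obtained narrow peaks (MACS), and whether the peaks were called on the combined reads is not stated. Versions, the peak threshold and the way peaks were joined are not given in the sources used here. The deposited values were genome positions in base pairs, with start positions counted from 0, because the narrowest site then measured 200 bp. Positions are given counted from 1. Genes were taken from GENCODE release M21 and sequence from RefSeq GRCm38.p6. The study used release M25 of the same build. The first intron was that of the principal, then longest, protein-coding transcript. A CArG box had to lie fully within a site.

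The list has no values per sample, so that no test between groups was possible, and all comparisons are descriptions. The genes and lists were chosen with earlier results of these data known. All 10 genes were named. Genes of the comparison lists were named if they had no promoter site or were among the 3 with the most or the fewest base pairs in sites, and all markers and smooth muscle genes were named. Certain genes and 1 sequence are not reported here. Sites were named if they were a gene's widest, covered a 5′ end or held a CArG box. Other sites and neighbouring genes were chosen for description after their values were seen. The software was Python 3.11.15 with the packages numpy 2.4.6, scipy 1.17.1, pandas 2.3.3 and, for plots, matplotlib 3.10.9. The functions were tested on simulated data, where 500 random regions gave 0 wrong results and 100 of 100 planted boxes were found.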

Additional observations from a re-analysis of the deposited data

How the results depend on the processing

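Of 38 alternatives, 29 kept the count within 1.5 times or the value within its interval. With the gene body alone, 118 sites and 136315 bp were counted, and with 50 kb at either end 322 sites. Merging of sites less than 1 kb apart left 62 sites with a median width of 1442 bp, and without the narrowest 25% of all sites (up to 265 bp) the median was 596 bp. After merging, the 5′ end lay inside a site for 10 genes. This outcome was fixed in advance, since the gaps of 80 to 363 bp were below 1 kb. When any annotated TSS was allowed, 10 genes had one inside a site. With 1 mismatch allowed, 28% of the member sites held a CArG box, compared to 19.5% of all sites. A promoter site was found for 7 genes at the 5′ end only (not Actb, Tpm2 and Myh9) and for 8 with protein-coding transcripts only. A first-intron site was found for 10 genes by any overlap and for 5 without promoter sites. The 6 alternatives that counted any overlap for the comparison lists, or at the 5′ end only, were added after seeing the data. No paired analysis was possible because each site has a position but no value per sample.

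The list does not give the depth of the libraries, so that a region without a site cannot be called free of H3K27ac. Because narrow peaks of several samples were joined, widths do not stand for any single sample.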
